A study of Mus musculus with 10 samples.

Results

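Cholesterol and fatty acid synthesis was examined through 31 genes in mouse tongue epithelial primary cultures. The genes were chosen by symbol for their known place in these pathways, with earlier results of these data known. All 31 were found among the 18586 gene rows of the table. All 31 also passed the filter on low values, at least 1 TPM in at least 4 libraries, which left 11630 genes. TPM divides the reads of a gene by transcript length and scales each library to a common sum. Levels can therefore be compared between genes, but the sequencing depth is unknown. Of the members, 18 are enzymes from acetoacetyl-CoA to cholesterol, 5 sense or carry sterols, and 8 make or modify fatty acids.

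The question was how cells that express oncogenic transgenes differ from cells with reporter alone. EY cells carried tetON_E6-E7 and tetON_YAP1S127A beside the Krt14-CreERT driver, LSL-rtTA and the tetON_H2B-GFP reporter, so that the papillomavirus E6-E7 oncogenes, a constitutively active YAP1 and green fluorescent histone follow doxycycline. N cells had the last 3 of these alleles and neither oncogene. The Krt14 promoter directs the tamoxifen-activated Cre to basal keratinocytes, where it allows the reverse transactivator to be made. The design text of the series gives 15 days from induction to the isolation of tongue epithelium and a sort for green fluorescence before culture. By the study's methods, EY cells were first cultured, then sorted and returned to culture. The study's methods give an age of 8 to 16 weeks for its transgenic mice and doxycycline in the culture medium, so induction was shared by both genotypes. Each of the EY lines EY3960, EY4028 and EY4174 gave 2 of the 6 EY libraries, whereas a single line, N4172, gave all 4 N libraries. Genotype therefore cannot be told apart from line. Nothing says that libraries of a line were separate animals, and p-values measure only the spread between these libraries. Over 3 EY lines and 1 N line, the smallest p that an exact permutation test allows is 0.25.

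Cells make cholesterol from acetyl-CoA, first through mevalonate to farnesyl diphosphate, and then through squalene and lanosterol. When membrane sterol is low, the escort protein Scap brings the membrane-bound factor Srebp2 from the endoplasmic reticulum to the Golgi, where its active part is released. Insig proteins hold the complex back when sterol is plentiful. Srebp1 drives mainly fatty acid synthesis by the same route. In stratified epithelium, cholesterol and fatty acids build the membranes of dividing cells and the lipid barrier of the outer layers.

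The cultures had the keratins of basal keratinocytes. Krt14 lay between 2517 and 4252 TPM, and Krt5 between 1321 and 2601 TPM. Among 7 listed oral keratinocyte genes, 1 rose in EY and 1 fell at a limma adjusted p under 0.01. Epcam rose (log2 fold change 0.82, adjusted p = 6.74e-05) and Trp63 fell (-0.58, adjusted p = 0.00262). Krt15 means were 35.3, 8.77 and 31.9 TPM in EY3960, EY4028 and EY4174, and 84.3 TPM in N (-1.90, adjusted p = 0.0168). Of 36 listed markers of 7 other cell classes (fibroblast, immune, endothelial, muscle, melanocyte, adipocyte, and sebocyte with salivary), 18 were in the table and 17 stayed under 3 TPM in every library. The exception was Cd68, a lysosomal protein of macrophages and other cells, at 29.3 to 71.8 TPM, while the leukocyte genes Ptprc and Csf1r stayed at or under 0.347 and 0.0582 TPM. Yap1 was 37.1 and 41.8 TPM in EY3960, 34.7 and 39.0 TPM in EY4028 and 57.1 and 54.9 TPM in EY4174, all above its 20.9, 17.3, 19.3 and 17.2 TPM in N (log2 fold change 1.17 ± 0.14 SE, limma adjusted p = 1.73e-04). Whether reads of the transgene counted toward that row is not stated. Between 10852 and 11522 genes reached 1 TPM, and mitochondrial genes took 14.1% to 19.9% of TPM in EY and 17.6% to 20.5% in N. N replicate 4 stood apart from the other N libraries in 864 genes (7.43% of those tested), against 63 to 126 genes for each other N library, by the gap to its nearest neighbour.

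Of the 18 enzymes of cholesterol synthesis, 11 rose in EY (61.1%, against 6.84% of all genes). The other 7 had positive values that did not pass the test. Genes were tested with limma on log2(TPM + 1), and a call needed both an adjusted p (Benjamini-Hochberg, over every gene tested) under 0.01 and a log2 fold change over 1 in either direction. This scale understates the differences of genes with few TPM. By this rule 3 of the 31 members were called higher and 0 lower, where 1.85% of all genes tested were called higher and 1.70% lower. Without the size limit, 15 members (48.4%) rose at an adjusted p under 0.01 and 0 fell, against 6.84% of all genes (795) that rose and 582 that fell. With line as a random block (estimated correlation within lines 0.44), 7 members (22.6%) stayed under 0.01, against 139 of all 11630 genes that rose, and with 1 mean per line 0 did. These 7 were Acat2, Mvk, Pmvk, Mvd, Fdps, Nsdhl and Srebf2. At an unadjusted p under 0.05, 22 members were higher and 0 lower in the fit over libraries, against 21.2% and 16.3% of all genes. Of the 16 members that did not pass an adjusted p of 0.01 in that fit, 14 had positive values, where 54.0% of all genes tested did. The median log2 fold change was 0.41 over the members and 0.03 over all genes. In 17 members (54.8%) every EY library lay above every N library, and in 0 every EY library lay below, compared with 11.3% and 9.10% of all genes. Without N replicate 4, 4 members were called higher and 14 rose at an adjusted p under 0.01. The summed level of the 18 cholesterol enzymes was 2694 to 2859 TPM in EY (2782 ± 73.5, SD, n = 6) and 1889 to 2013 TPM in N (1945 ± 56.7, SD, n = 4), a ratio of 1.43 with no overlap.

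**Figure D1:**
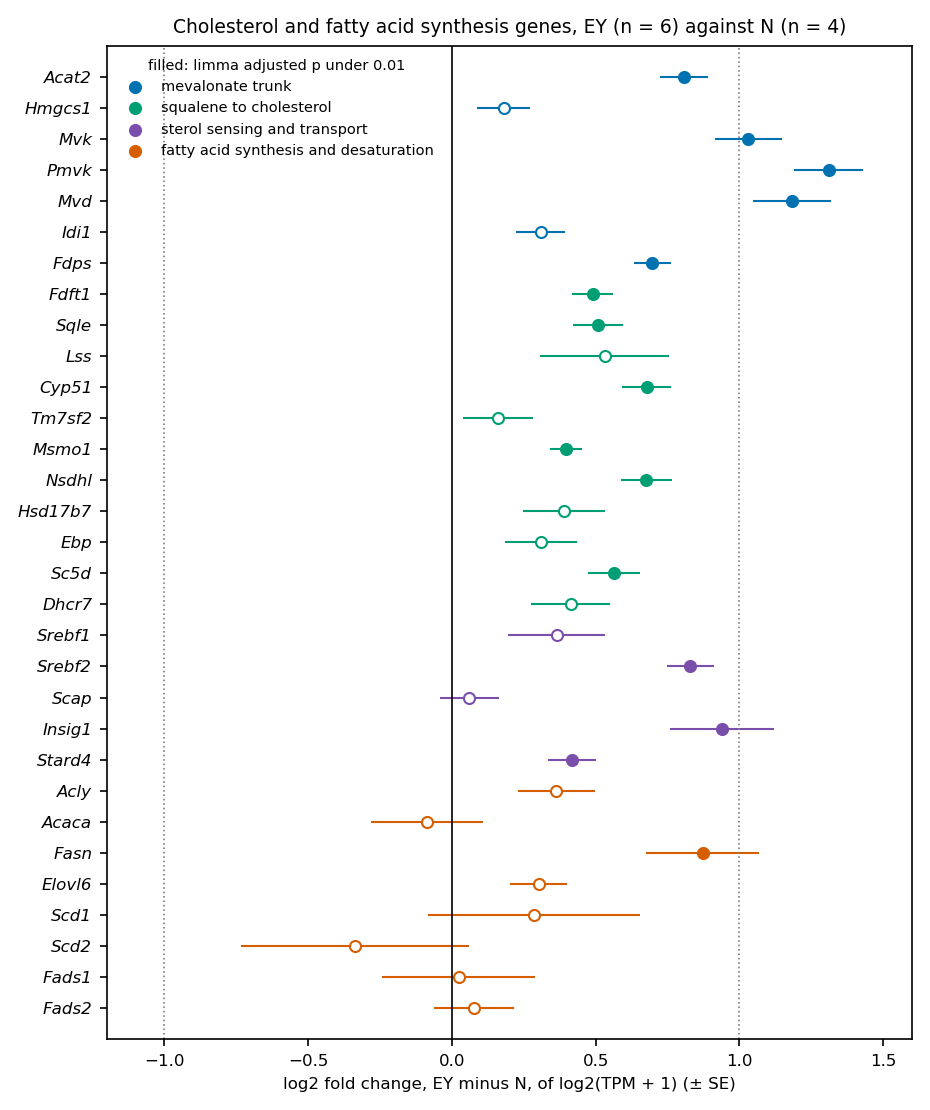
Log2 fold change of each of the 31 genes in EY (n = 6) against N (n = 4) on the x axis, with its standard error as a bar, ordered down the y axis by role. Filled points have a limma adjusted p under 0.01 and dotted lines mark a log2 fold change of 1 in either direction. Mvk, Pmvk and Mvd lie beyond 1, all 18 cholesterol enzymes lie to the right of 0, and Scd2 at -0.34 and Acaca at -0.09 are the 2 points to its left.

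In the mevalonate trunk, 5 of 7 enzymes rose (71.4%, against 6.84% of all genes), and the same 5 stayed under 0.01 with line as a random block. The median log2 fold change was 0.81. The 3 called genes act one after another to turn mevalonate into isopentenyl diphosphate. Mvk, mevalonate kinase, was 33.4 and 32.9 TPM in EY3960, 39.1 and 41.8 TPM in EY4028, 46.8 and 46.6 TPM in EY4174, and 18.9, 17.4, 18.5 and 21.0 TPM in N. Each EY library exceeded the highest N library, and the means were 2.11-fold apart (log2 fold change 1.03 ± 0.11 SE, adjusted p = 9.04e-05). Its log2 fold change lay near the limit of 1 and was under it without either EY4174 library (0.98 and 0.99), without that line (0.92), without N replicate 2 (0.99) and with median-ratio scaling (0.998).

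Pmvk, which adds the next phosphate, had the largest log2 fold change of the 31. It was 44.6 and 43.6 TPM in EY3960, 38.9 and 36.8 TPM in EY4028, 28.8 and 35.1 TPM in EY4174, and 16.2, 14.7, 14.6 and 13.0 TPM in N. The line means ran from 32.0 TPM in EY4174 to 44.1 TPM in EY3960, in the reverse order to Mvk (log2 fold change 1.31 ± 0.12 SE, adjusted p = 2.22e-05). Those differences between EY lines did not pass limma's F test over the 3 line means at 0.01 for either gene (adjusted p = 0.0617 for Pmvk and 0.0232 for Mvk). Mvd, the decarboxylase that yields isopentenyl diphosphate, was 33.0 and 34.7 TPM in EY3960, 48.2 and 46.4 TPM in EY4028, 49.5 and 49.6 TPM in EY4174, and 17.6, 16.4, 18.3 and 21.6 TPM in N. EY3960 was thus the lowest EY line for Mvd but still above N (log2 fold change 1.18 ± 0.14 SE, adjusted p = 1.12e-04).

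The other 2 trunk enzymes that rose are more abundant. Acat2, which joins acetyl-CoA units into acetoacetyl-CoA, was 225 and 242 TPM in EY3960, 223 and 220.02 TPM in EY4028, 231 and 236 TPM in EY4174, and 138, 133, 148 and 107 TPM in N. Its 3 EY lines were close together, with means of 221 to 234 TPM (log2 fold change 0.81 ± 0.08 SE, adjusted p = 5.45e-05). Fdps, farnesyl diphosphate synthase, was 462 and 473 TPM in EY3960, 495 and 493 TPM in EY4028, 451 and 528 TPM in EY4174, and 296, 281, 308 and 306 TPM in N (log2 fold change 0.70 ± 0.06 SE, adjusted p = 2.18e-05). Groups did not overlap for either gene. Of the Fdps transcript, 89.7% of the 31-base words also occur in other annotated transcripts, and of Acat2 50.5%, so their split from near copies is uncertain. The leading copies were low, at or under 0.185 TPM for Gm43738 and 0.744 TPM for Acat3. Acaca (56.8%), Idi1 (22.2%) and Fdft1 (16.5%) share sequence in the same way, and 17 of the 31 members share none. The leading copy of Acaca, Gm5182, stayed at or under 0.147 TPM. That of Idi1, Gm13502, was not low throughout, at 0 to 28.3 TPM in EY and 0 to 14.0 TPM in N.

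The remaining trunk genes did not pass the test. Hmgcs1, which makes hydroxymethylglutaryl-CoA, was 201 to 244 TPM in EY and 180 to 238 TPM in N (log2 fold change 0.18 ± 0.09 SE, adjusted p = 0.181). Idi1, the isomerase after Mvd, was 388 to 444 TPM in EY and 281 to 371 TPM in N (log2 fold change 0.31 ± 0.08 SE, adjusted p = 0.0205). N replicate 4 was the highest N library for Hmgcs1, at 238 TPM against 180 to 188 TPM in the others, and the lowest for Idi1, at 281 TPM against 358 to 371 TPM.

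**Figure D2:**
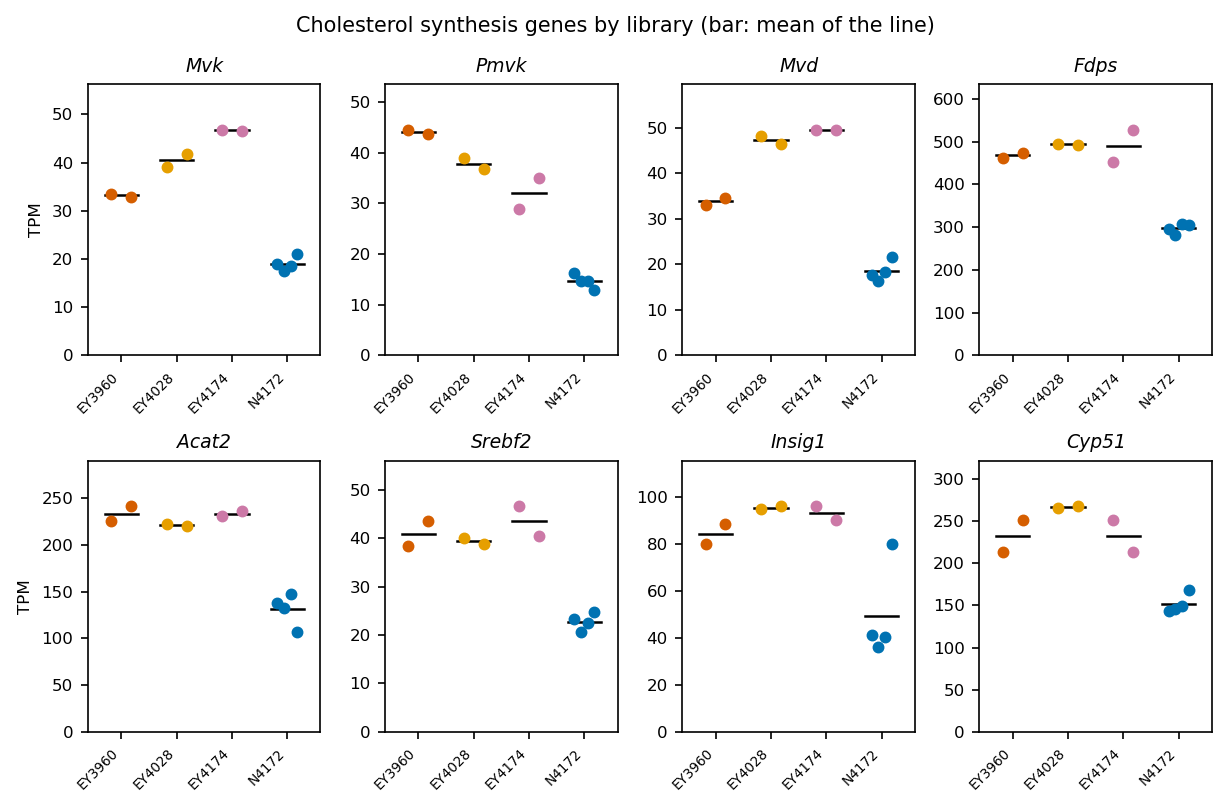
TPM on the y axis, from 0, of 8 cholesterol genes in each library, by culture line on the x axis (2 libraries in each EY line and 4 in N4172). Points are libraries and bars are line means. The 8 genes were taken from those that rose at an adjusted p under 0.01. Genes whose groups overlapped, such as Hmgcs1 and Lss, are not drawn. EY points lie above N points in all 8 panels, narrowly so for Insig1, where 1 N library reached 79.7 TPM.

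Promoter letters of a few of these genes are printed because the genes rose together or encode the sterol feedback itself. They are reference sequence from RefSeq on GRCm38.p6, from 250 bases before to 50 bases after an annotated start, while the submitters' notes name GRCm39 for the RNA-seq. Capitals mark CCAAT on either strand, the letters bound by nuclear factor Y, and TCACNCCAC on either strand, a form of the sterol regulatory element bound by Srebp. Mvk lies at chr5:114444019-114444318 on the plus strand and held 5 copies of CCAAT:

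Mvk: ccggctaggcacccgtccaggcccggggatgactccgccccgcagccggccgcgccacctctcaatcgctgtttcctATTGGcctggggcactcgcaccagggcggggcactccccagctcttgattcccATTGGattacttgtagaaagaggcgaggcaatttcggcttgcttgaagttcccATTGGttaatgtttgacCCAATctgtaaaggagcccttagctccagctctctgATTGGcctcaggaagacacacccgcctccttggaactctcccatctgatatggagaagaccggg

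Pmvk, the member with the largest log2 fold change, has 2 windows in the reference. Neither held GGGCGG or TCACNCCAC, and the one at chr3:89459321-89459620 on the plus strand, which is not printed, held 0 copies of CCAAT. Letters outside these 2 windows were not read, so the absence holds for the windows alone. The one at chr3:89454291-89454590 on the plus strand held 1 copy:

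Pmvk: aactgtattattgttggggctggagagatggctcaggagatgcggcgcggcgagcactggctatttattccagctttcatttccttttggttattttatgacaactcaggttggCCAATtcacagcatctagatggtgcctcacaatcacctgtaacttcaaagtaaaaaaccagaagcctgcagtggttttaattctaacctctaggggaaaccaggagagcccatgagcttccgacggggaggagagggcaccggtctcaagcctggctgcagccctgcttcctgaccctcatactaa

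Mvd lies at chr8:122443373-122443672 on the minus strand and held 2 copies of CCAAT:

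Mvd: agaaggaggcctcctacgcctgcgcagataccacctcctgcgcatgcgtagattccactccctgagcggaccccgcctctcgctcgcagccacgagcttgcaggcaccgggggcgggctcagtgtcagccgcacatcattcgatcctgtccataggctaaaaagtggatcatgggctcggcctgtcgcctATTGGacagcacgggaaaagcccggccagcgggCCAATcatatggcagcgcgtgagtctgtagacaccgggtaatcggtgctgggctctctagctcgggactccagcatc

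Srebf2, at chr15:82147019-82147318 on the plus strand, held 1 copy of CCAAT:

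Srebf2: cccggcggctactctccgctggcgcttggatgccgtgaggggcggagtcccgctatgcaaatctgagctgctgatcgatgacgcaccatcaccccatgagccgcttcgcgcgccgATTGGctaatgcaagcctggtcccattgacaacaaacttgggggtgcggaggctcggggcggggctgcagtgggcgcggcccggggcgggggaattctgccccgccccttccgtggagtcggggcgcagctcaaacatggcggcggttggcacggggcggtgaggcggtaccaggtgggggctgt

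Insig1, at chr5:28071162-28071461 on the plus strand, also held 1 copy:

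Insig1: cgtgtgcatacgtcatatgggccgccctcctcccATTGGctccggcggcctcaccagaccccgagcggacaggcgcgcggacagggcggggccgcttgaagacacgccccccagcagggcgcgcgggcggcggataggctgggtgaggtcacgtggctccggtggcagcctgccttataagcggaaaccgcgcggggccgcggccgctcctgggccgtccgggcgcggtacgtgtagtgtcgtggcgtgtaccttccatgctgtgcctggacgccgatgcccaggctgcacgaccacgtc

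Hmgcs1, at chr13:119690101-119690400 on the plus strand, did not pass the test between EY and N. It is shown because it held the only match to TCACNCCAC among the 24 members with windows. The match lay 137 bases before the start, beside 4 copies of CCAAT:

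Hmgcs1: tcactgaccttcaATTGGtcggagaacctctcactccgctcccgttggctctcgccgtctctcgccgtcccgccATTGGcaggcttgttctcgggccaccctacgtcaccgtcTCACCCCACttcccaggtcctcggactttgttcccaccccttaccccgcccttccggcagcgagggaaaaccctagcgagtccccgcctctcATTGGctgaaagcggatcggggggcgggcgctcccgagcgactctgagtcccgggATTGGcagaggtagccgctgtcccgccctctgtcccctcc

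Promoter windows were matched by symbol for 24 of the 31 members, with 30 windows in all. Fdps, Fdft1, Sqle, Stard4, Scd1, Scd2 and Fads1 had none and were not read. CCAAT occurred in 20 of these windows (66.7%) and in 37.4% of all 32851 promoter windows. Genes that rose but are not printed include Acat2, whose window held 0 copies of CCAAT, Cyp51 with 1 and Nsdhl with 4. GGGCGG, the GC box bound by Sp1, was found in 23 member windows (76.7%) and in 35.7% of all windows, while TCACNCCAC was found in 1 (3.33%) and in 1.24%. All members passed the filter on low values, whereas the windows of the background belong to 27025 genes, more than the 11630 tested. Shares over expressed genes alone were not computed, so the excess cannot be tied to these pathways. Both strands were read, the single TCACNCCAC match overlapped no match of the other motifs, and a match describes letters and not binding.

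From squalene to cholesterol, 6 of 11 enzymes rose (54.5%, against 6.84% of all genes) and the other 5 had positive values. The median log2 fold change was 0.49. With line as a random block only Nsdhl stayed under 0.01, and the adjusted p was 0.0148 for Cyp51, 0.0185 for Fdft1, 0.0288 for Msmo1, 0.0539 for Sc5d and 0.0687 for Sqle. Cyp51, the lanosterol demethylase, was 214 and 251 TPM in EY3960, 265 and 268 TPM in EY4028, 252 and 213 TPM in EY4174, and 143, 146, 149.5 and 168 TPM in N (log2 fold change 0.68 ± 0.09 SE, adjusted p = 2.28e-04). Nsdhl, a sterol dehydrogenase of the following demethylation, was 59.5 and 60.2 TPM in EY3960, 65.0 and 65.7 TPM in EY4028, 54.7 and 50.2 TPM in EY4174, and 33.8, 35.5, 37.8 and 39.3 TPM in N (log2 fold change 0.68 ± 0.09 SE, adjusted p = 2.80e-04). Both genes had every EY library above every N library.

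Msmo1, the methylsterol oxidase, changed less and varied little. It was 443 and 412 TPM in EY3960, 431 and 428 TPM in EY4028, 403 and 431 TPM in EY4174, and 317, 311, 325 and 336 TPM in N (log2 fold change 0.40 ± 0.06 SE, adjusted p = 4.90e-04). Its line means spanned 417 to 429.6 TPM, so the 3 EY lines were nearly equal for this gene. Sc5d, a sterol desaturase late in the pathway, was 107 and 107 TPM in EY3960, 106 and 111 TPM in EY4028, 111 and 85.8 TPM in EY4174, and 61.6, 69.7, 77.2 and 73.8 TPM in N (log2 fold change 0.56 ± 0.09 SE, adjusted p = 0.00108). The lowest EY library still exceeded the highest N library.

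The enzymes on either side of squalene also rose. Fdft1, squalene synthase, was 128 and 134 TPM in EY3960, 113 and 115 TPM in EY4028, 137 and 132 TPM in EY4174, and 87.6, 89.1, 93.2 and 88.5 TPM in N (log2 fold change 0.49 ± 0.07 SE, adjusted p = 6.65e-04). Sqle, squalene epoxidase, was 75.7 and 83.1 TPM in EY3960, 87.5 and 85.8 TPM in EY4028, 88.6 and 87.9 TPM in EY4174, and 56.7, 51.9, 59.3 and 70.6 TPM in N (log2 fold change 0.51 ± 0.09 SE, adjusted p = 0.00164). Neither gene overlapped between groups. Sqle missed the threshold without line EY4028 (adjusted p = 0.0129). Exons of Fdft1 overlap Ctsb on the opposite strand over 18.3% of their bases, and without a stated strand setting reads of both genes cannot be told apart. The mean of Ctsb was 183 TPM in EY and 234 TPM in N.

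The 5 enzymes that did not pass were Lss, Tm7sf2, Hsd17b7, Ebp and Dhcr7, with log2 fold changes from 0.16 for Tm7sf2 to 0.53 for Lss. Lss, which closes the sterol rings, ranged widely, from 36.1 to 83.1 TPM in EY and 32.9 to 55.7 TPM in N, and passed only without EY3960 replicate 1 (log2 fold change 0.69, adjusted p = 0.00844). Dhcr7, the last reductase of its branch, was 26.0 to 42.4 TPM in EY and 21.5 to 28.6 TPM in N. Hsd17b7, a sterol ketoreductase, was highest in EY3960 at 93.9 and 103 TPM, against 62.8 to 78.6 TPM in the other EY libraries and 54.1 to 61.5 TPM in N.

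Among the 5 genes of sterol sensing and transport, Srebf2, Insig1 and Stard4 rose (60.0%, against 6.84% of all genes). The values of Srebf1 and Scap did not pass. With line as a random block Srebf2 stayed under 0.01, and the adjusted p was 0.148 for Insig1 and 0.122 for Stard4. Srebf2, which encodes Srebp2, was 38.4 and 43.5 TPM in EY3960, 40.0 and 38.7 TPM in EY4028, 46.6 and 40.4 TPM in EY4174, and 23.2, 20.6, 22.5 and 24.8 TPM in N. The means were 1.81-fold apart without overlap, and the lowest EY library was 38.4 TPM against a highest N library of 24.8 TPM (log2 fold change 0.83 ± 0.08 SE, adjusted p = 3.95e-05). Srebf1, which encodes Srebp1, was far lower, at 5.62 to 9.66 TPM in EY and 4.04 to 6.86 TPM in N (log2 fold change 0.36 ± 0.17 SE, adjusted p = 0.139). A test of the difference between both genes was not run.

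Insig1, the sterol-dependent anchor and itself a known Srebp target, was 80.0 and 88.3 TPM in EY3960, 94.7 and 96.0 TPM in EY4028, 95.9 and 90.1 TPM in EY4174, and 41.1, 36.3, 40.2 and 79.7 TPM in N. The last value is N replicate 4, which lay just under the lowest EY library. With it the log2 fold change was 0.94 ± 0.18 SE (adjusted p = 0.00361), and without it 1.19 (adjusted p = 8.30e-06), when the N mean fell from 49.3 to 39.2 TPM. Insig1 also missed the threshold when any of the other 3 N libraries, or any EY line, was left out (adjusted p = 0.0102 to 0.0229).

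Stard4, a carrier of cholesterol between membranes, was 50.6 and 61.6 TPM in EY3960, 58.8 and 61.4 TPM in EY4028, 64.7 and 53.8 TPM in EY4174, and 40.6, 42.5, 43.6 and 47.2 TPM in N (log2 fold change 0.42 ± 0.08 SE, adjusted p = 0.00402). The groups did not overlap, though the highest N library and the lowest EY library were close. It missed the threshold when N replicate 1, 2 or 3, either EY4028 library, or both were left out (adjusted p = 0.0101 to 0.0252). Scap was 15.9 to 22.2 TPM in EY and 15.2 to 17.9 TPM in N (log2 fold change 0.06 ± 0.10 SE, adjusted p = 0.705).

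Fatty acid synthesis and desaturation gave another picture, since the EY lines split. Of its 8 genes, 1 rose and 0 fell over all EY libraries, and the median log2 fold change was 0.18. Its summed level was 197 to 367 TPM in EY, a range that included the 239 to 268 TPM of N. Fasn, fatty acid synthase, was 24.8 and 25.5 TPM in EY3960, 42.2 and 48.1 TPM in EY4028, 46.7 and 43.7 TPM in EY4174, and 21.5, 17.4, 21.2 and 19.6 TPM in N. EY3960 was barely above N, and the other 2 lines were each 2.27-fold above it (over all, log2 fold change 0.87 ± 0.20 SE, adjusted p = 0.00825). The adjusted p was no longer under 0.01 when any EY4028, EY4174 or N library, or line EY4028 or EY4174, was left out (0.0151 to 0.0404), nor with line as a random block (0.0589).

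**Figure D3:**
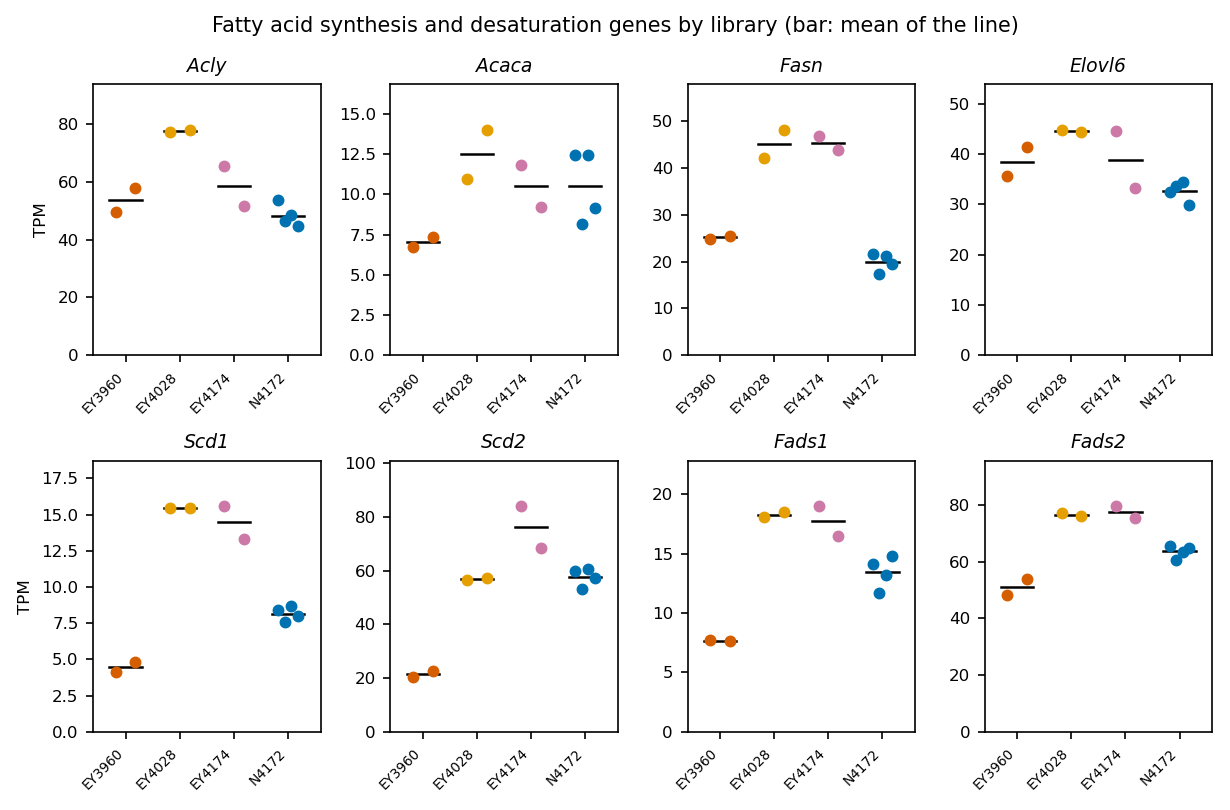
TPM on the y axis, from 0, of the 8 fatty acid genes in each library, by culture line on the x axis (2 libraries in each EY line and 4 in N4172). Points are libraries and bars are line means. For Scd1, Scd2, Fads1 and Fads2 both EY3960 points lie below all N points, and for Fasn the EY3960 points lie at 24.8 and 25.5 TPM, between N and the other EY lines.

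The differences between the 3 EY lines were tested with an F test in a model with 4 line means, and called when the adjusted p was under 0.01 and a pair of lines differed by over 1 on the log2 scale. Scd1, Scd2 and Fads1 were called, 3 of the 31 members, where 5.12% of all genes tested were called. Without the size limit Fasn, Fads2 and Hsd17b7 were added, giving 6 members against 8.55% of all genes. Fasn stayed under 0.01 in 15 of 17 alternatives and Fads2 in 16, but Hsd17b7 in only 6. Of the 6 members, 5 belong to the 8 fatty acid genes and 1 to the 18 cholesterol enzymes. Scd1, Scd2, Fads1 and Fads2 also share chromosome 19, with Tm7sf2, which did not pass, while Fasn lies on chromosome 11. Whether pathway or chromosome matters for these differences was not tested.

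Scd1 and Scd2 encode desaturases that put the double bond into stearoyl-CoA and palmitoyl-CoA. Scd1 was 4.15 and 4.79 TPM in EY3960, 15.4 and 15.5 TPM in EY4028, 15.6 and 13.3 TPM in EY4174, and 8.39, 7.57, 8.71 and 7.96 TPM in N. EY3960 lay below N and the other EY lines above it, with no overlap among the 3 ranges (F test adjusted p = 1.64e-05). Scd2 was more abundant, at 20.4 and 22.7 TPM in EY3960, 56.3 and 57.2 TPM in EY4028, 83.9 and 68.5 TPM in EY4174, and 59.9, 52.9, 60.5 and 57.2 TPM in N. Here EY4028 lay within N and EY4174 above N (F test adjusted p = 4.60e-06).

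Fads1, the desaturase that makes arachidonic acid, was 7.70 and 7.65 TPM in EY3960, 18.1 and 18.6 TPM in EY4028, 19.0 and 16.5 TPM in EY4174, and 14.1, 11.7, 13.2 and 14.8 TPM in N (F test adjusted p = 1.99e-04). Its order was that of Scd1. Fads2, which acts before Fads1, was 48.4 and 54.1 TPM in EY3960, 75.3 to 79.6 TPM in the other 4 EY libraries and 60.8 to 65.4 TPM in N (F test adjusted p = 0.00116). Over all EY libraries the log2 fold changes of Scd1, Scd2, Fads1 and Fads2 were 0.29, -0.34, 0.02 and 0.08, none of which passed the test. Those of Scd2, Fads1 and Fads2 changed sign when 1 EY line was left out, and Scd1 passed without line EY3960 (0.80, adjusted p = 3.13e-04).

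The other fatty acid genes did not pass either test. Acly, which supplies cytosolic acetyl-CoA, was 49.4 to 78.0 TPM in EY and 44.8 to 53.7 TPM in N, and was highest in EY4028 at 77.0 and 78.0 TPM. Elovl6, which lengthens palmitate, was 33.2 to 44.9 TPM in EY and 29.9 to 34.4 TPM in N. Acaca, acetyl-CoA carboxylase, was 6.73 to 14.0 TPM in EY and 8.19 to 12.4 TPM in N, with both EY3960 libraries, at 6.73 and 7.38 TPM, below every N library.

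Markers of the upper epithelial layers moved with the lines as well. Of 8 suprabasal keratinocyte genes, 7 were in the table, 4 differed between EY lines at an adjusted p under 0.01, and 6 had their highest EY mean in EY3960. Krt13, a keratin of the suprabasal oral epithelium, was 72.5 and 66.0 TPM in EY3960, 3.55 to 10.4 TPM in the other EY libraries and 44.8 to 88.6 TPM in N. The summed level of the 7 genes, mostly Krt6a, was 1790.0 to 2766 TPM in EY and 1722 to 2477 TPM in N, with a mean of 2714 TPM in EY3960 and of 1993 and 1794 TPM in EY4028 and EY4174. Of 7 oral keratinocyte genes, 3 differed between EY lines at that limit, and 5 had their lowest and 2 their highest EY mean in EY3960. The basal keratin Krt5 was lowest there, at 1321 and 1462 TPM against 1884 to 2601 TPM in the other EY libraries, while Krt15 (35.3 TPM, against means of 8.77 and 31.9 TPM) and Itga6 (249 TPM, against 224 and 194 TPM) were highest there. The summed level of the 7 genes was 4224 to 7189 TPM in EY and 5225 to 5961 TPM in N. The part of these layers in the desaturase and Fasn differences was not tested, and in bulk libraries fewer cells of a type and less RNA per cell cannot be told apart.

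Each EY line was then set against the 4 N libraries, which the 3 comparisons share. In EY3960, Pmvk was called higher (log2 fold change 1.54 ± 0.11 SE) and Scd2 lower (-1.38 ± 0.10 SE), where 3.96% of all genes were called higher and 3.08% lower. In EY4028, Fasn, Mvd, Mvk and Pmvk were called higher, with log2 fold changes of 1.14, 1.32, 1.06 and 1.32, and 0 members lower, against 3.56% and 2.18% of all genes. The same 4 genes were called higher in EY4174, at 1.15, 1.38, 1.26 and 1.08, and 0 members lower, against 2.01% and 2.94% of all genes. At an adjusted p under 0.01 alone, 12, 16 and 13 members were higher in EY3960, EY4028 and EY4174, against 9.94%, 10.9% and 7.32% of all genes. Lower at that limit were Scd1, Scd2 and Fads1 in EY3960 (log2 fold changes -0.74, -1.38 and -0.73), against 7.06% of all genes, and 0 members in either other line, against 5.83% and 8.26%. At an unadjusted p under 0.05, limma gave 5 lower members in EY3960 and 0 in each of the others, against 17.7%, 14.4% and 21.7% of all genes. The higher members at that limit were 18, 27 and 24, against 22.1%, 26.8% and 19.6% of all genes.

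The 18 cholesterol enzymes had positive values in each of the 3 lines, from 0.01 for Tm7sf2 in EY3960 upward, with medians of 0.57, 0.63 and 0.54. The 8 fatty acid genes had medians of -0.41, 0.43 and 0.33 in EY3960, EY4028 and EY4174, and 3, 7 and 8 of them were positive. Of all 11630 genes tested, 5952, 7020 and 5633 were positive in these lines. Srebf2 was evenly higher, at 0.82, 0.77 and 0.90 (adjusted p = 1.48e-04, 2.97e-04 and 1.11e-04). Srebf1 was 0.05, 0.67 and 0.37 in the same lines, with adjusted p-values of 0.870, 0.0113 and 0.115.

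**Figure D4:**
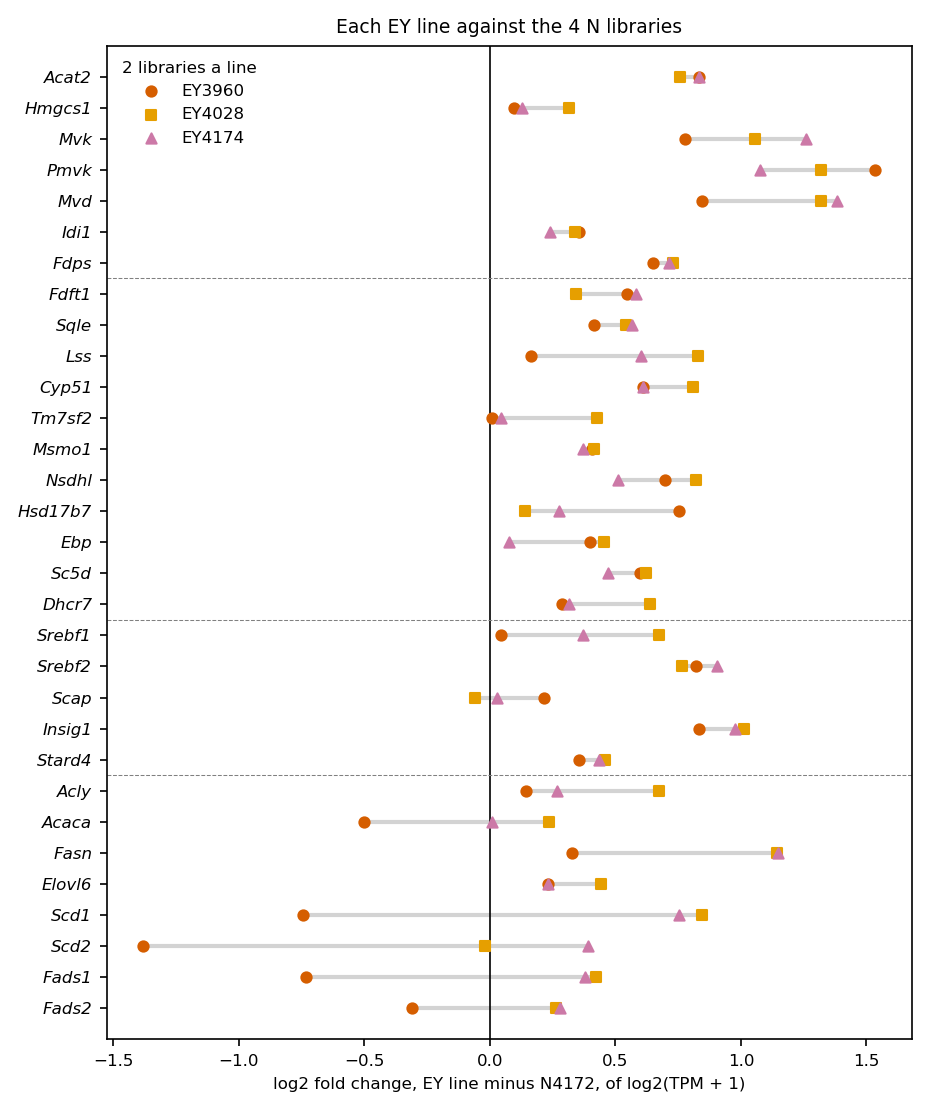
Log2 fold change of each gene in each EY line (2 libraries) against the 4 N libraries on the x axis, with genes down the y axis by role and dashed lines between roles. Grey bars join the lowest and the highest line. Bars are short for Srebf2, Fdps, Acat2 and Msmo1, and long for Scd1 (-0.74 to 0.85), Scd2 (-1.38 to 0.39) and Fads1 (-0.73 to 0.42), where the EY3960 point lies left of 0.

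Other lipid genes were counted to set the members in their surroundings. Of 91 listed, 89 were in the table and 80 passed the filter. At an adjusted p under 0.01, 14 rose (17.5%, against 6.84% of all genes) and 7 fell (8.75%, against 582 of 11630 genes), and the median log2 fold change was 0.16. With line as a random block, 0 of the 80 rose and 1, Vldlr, fell at that limit. Of 13 genes of Srebp processing and feedback, 1 rose (7.69%, near the share of all genes) and 0 fell, and no site protease or E3 ligase of that list passed. The gene that rose was Nfyc, a subunit of nuclear factor Y, at 54.6 to 76.6 TPM in EY and 41.1 to 48.8 TPM in N (log2 fold change 0.47 ± 0.11 SE, adjusted p = 0.00743). Nfyc missed the threshold in 14 of 22 alternatives.

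Of 14 other sterol and isoprenoid enzymes, 2 rose (14.3%, against 6.84% of all genes) and 1 fell (7.14%). Dhdds, of dolichol synthesis, was among the genes that rose (log2 fold change 0.37, adjusted p = 0.00409), and is named after its values were seen. Ggps1, which draws farnesyl diphosphate away to geranylgeranyl diphosphate, fell from 22.1 to 25.4 TPM in N to 11.3 to 15.3 TPM in EY (log2 fold change -0.70 ± 0.09 SE, adjusted p = 3.09e-04). At that branch point, the enzyme toward squalene (Fdft1) was higher and the enzyme toward geranylgeranyl diphosphate lower in every EY library than in any N library. Such separation was seen in 11.3% of all genes upward and in 9.10% downward. Neither Fdft1 nor Ggps1 stayed under 0.01 with line as a random block, and flux through the branch was not measured.

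Of 15 genes of lipid uptake, efflux and storage, 2 rose (13.3%, against 6.84% of all genes) and 3 fell (against 582 of 11630 genes). Vldlr, a lipoprotein receptor, was 2.22 and 2.03 TPM in EY3960, 4.39 and 4.38 TPM in EY4028, 4.28 and 3.36 TPM in EY4174, and 13.1, 15.97, 12.8 and 10.8 TPM in N (log2 fold change -1.70 ± 0.19 SE, adjusted p = 9.65e-05). Fabp5, the epidermal fatty acid binding protein, was 434 and 389.7 TPM in EY3960, 185 and 199.7 TPM in EY4028, 161 and 142 TPM in EY4174, and 750.4, 732, 770.2 and 623 TPM in N (log2 fold change -1.64 ± 0.32 SE, adjusted p = 0.00553). Both were called lower, and Fabp5 also differed between the EY lines (F test adjusted p = 2.11e-05), being highest in EY3960. Fabp5 missed the threshold in 12 of 22 alternatives, among them the omission of any 1 N library (adjusted p = 0.0122 to 0.0211). Dgat2, which completes triglycerides, rose from 5.07 to 6.19 TPM in N to 8.40 to 11.8 TPM in EY (log2 fold change 0.71 ± 0.11 SE, adjusted p = 0.00110). The other genes at this limit, named after their values were seen, were the lipoprotein receptor Lrp8 (0.76, adjusted p = 0.00978) and the lower Stard5 (-0.52, adjusted p = 0.00978).

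Of 23 genes of acetyl-CoA and NADPH supply, elongation and acyl-CoA synthesis, 8 rose (34.8%, against 6.84% of all genes) and 1 fell (4.35%), with a median log2 fold change of 0.36. Acss2, which makes acetyl-CoA from acetate, was 8.93 and 7.55 TPM in EY3960, 7.48 and 6.31 TPM in EY4028, 3.78 and 3.51 TPM in EY4174, and 1.45, 1.62, 2.28 and 1.80 TPM in N (log2 fold change 1.33 ± 0.22 SE, adjusted p = 0.00144, and 0.0113 without line EY4028). Its level in EY3960 was the highest of the lines, unlike that of the desaturases. Acot7, an acyl-CoA thioesterase, was 74.9 to 93.2 TPM in EY and 27.3, 25.4, 27.6 and 50.8 TPM in N (log2 fold change 1.34 ± 0.17 SE, adjusted p = 2.10e-04). Both were called higher. With line as a random block the adjusted p was 0.0224 for Acss2 and 0.0264 for Acot7, and with 1 mean per line 0.365 and 0.0779. With sample number as a replicate block that of Acss2 was 0.0260.

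Of 15 genes of fatty acid oxidation, 1 rose (6.67%, near the 6.84% of all genes) and 2 fell (13.3%, against 582 of 11630 genes), with a median log2 fold change of 0.04. Acaa2, a mitochondrial thiolase, was 62.4 to 77.9 TPM in EY and 51.6 to 56.1 TPM in N (log2 fold change 0.37 ± 0.07 SE, adjusted p = 0.00329), and missed the threshold without N replicate 1, 2 or 3 (0.0102 to 0.0165). Hadh, the dehydrogenase of short chains, fell from 36.1 to 46.3 TPM in N to 26.0 to 33.7 TPM in EY (log2 fold change -0.43 ± 0.10 SE, adjusted p = 0.00689), but missed the threshold in 12 of 22 alternatives. Acadm, named after its values were seen, was the other gene that fell (-0.43, adjusted p = 0.00920).

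**Figure D5:**
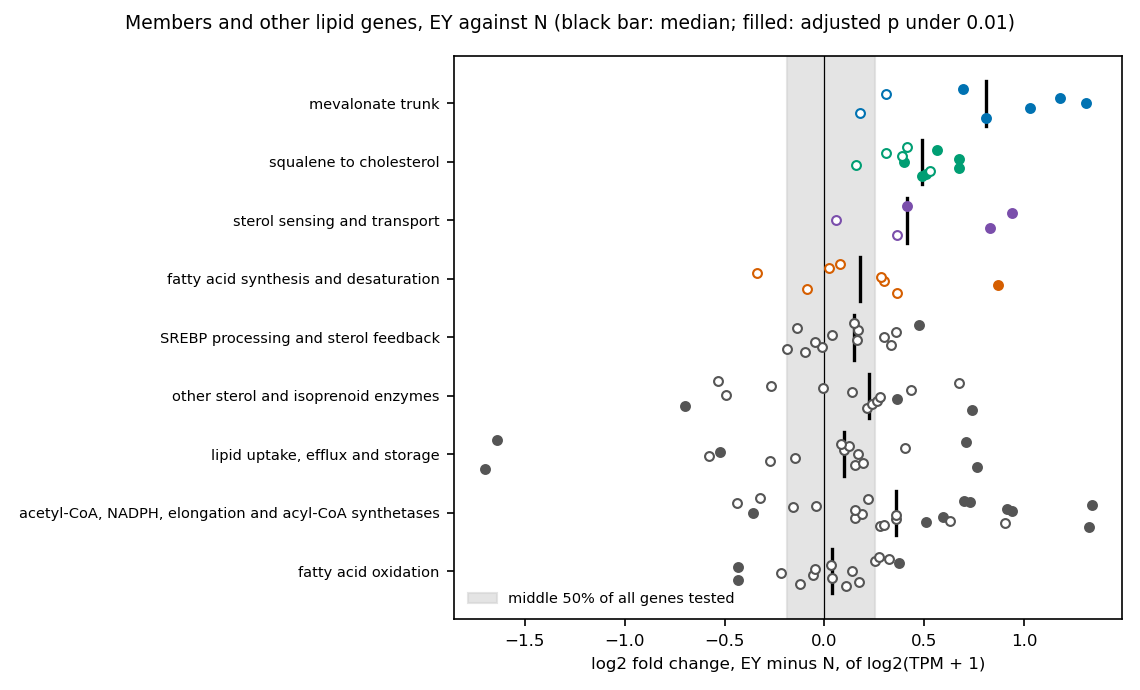
Log2 fold change in EY against N on the x axis for each tested gene of the 4 member groups and 5 further lipid lists (y axis). Filled points have a limma adjusted p under 0.01, black bars are list medians, and the grey band holds the middle 50% of all 11630 genes tested. The mevalonate and squalene lists have medians of 0.81 and 0.49, right of the band, and the oxidation list has one of 0.04.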

How the data were processed

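Poly(A) RNA of 10 libraries was sequenced, and the deposited TPM, which the authors had computed, were used as given. Per the labels, the submitters' notes name STAR 2.7.9, SAMtools 1.7, HTSeq 0.13.5, DESeq2 1.34.0 and GRCm39. The study's methods describe gene counts for differential expression and Kallisto TPM for enrichment, and the table does not state which step made its values. That Kallisto step is described with a human transcriptome as its reference, whereas the rows of the table carry mouse symbols, and the reference behind the TPM is not stated in it. The depth is unknown, so no interval or detection limit that needs counts is given. Libraries were grouped by the line in their titles.

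TPM were tested as log2(TPM + 1) with limma 3.58.1 (R 4.3.3), with trend and robust options, over the genes that reached 1 TPM in 4 or more libraries, after the code had been tested on simulated data. Every adjusted p is from limma with Benjamini-Hochberg adjustment over all genes tested, two-sided for single contrasts. EY was compared with N, the EY lines with each other by an F test, and each line with N. Sequence shared with other transcripts was counted as 31-base words of GENCODE M21 transcripts. Alternatives changed the pseudocount, filter, scaling, moderation, treatment of line, and the libraries or lines kept. Values in every library are given for members with an adjusted p under 0.01 or called, and among other lipid genes those called and the 2 with the smallest adjusted p of each list are named, except for some items that are not reported here. Members and lists were chosen with earlier results of these data known.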

Additional observations from a re-analysis of the deposited data

Results flagged for a closer look

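Among groups of 6 EY or 4 N libraries, 86 were examined for a library far from its nearest neighbour, of which chance alone would mark about 4.3. The 4.3 takes the libraries of a group as alike, whereas the EY groups pool 3 lines. The rule marked 7, and 4 of these were N replicate 4. Over all genes tested it marked N replicate 4 in 864 (7.43%), so these marks are not particular to the genes examined. That library was high for Hmgcs1 (238 TPM, nearest 188 TPM), Insig1 (79.7 TPM, nearest 41.1 TPM) and Acot7 (50.8 TPM, nearest 27.6 TPM), and low for Idi1 (281 TPM, nearest 358 TPM). Without it the log2 fold change between EY and N was 0.27 for Hmgcs1, 1.19 for Insig1, 1.56 for Acot7 and 0.21 for Idi1, and of these Insig1 and Acot7 had an adjusted p under 0.01, as they had with it.

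EY4174 replicate 2 was low for Sc5d (85.8 TPM, nearest 106 TPM) and Ggps1 (11.3 TPM, nearest 14.0 TPM), and EY3960 replicate 2 was high for Scap (22.2 TPM, nearest 17.8 TPM).

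The EY lines differed from each other, by the F test and by over 1 on the log2 scale in a pair of lines, for Scd1 (adjusted p = 1.64e-05), Scd2 (adjusted p = 4.60e-06), Fads1 (adjusted p = 1.99e-04) and Fabp5 (adjusted p = 2.11e-05). Scd1, Scd2 and Fads1 were lowest in EY3960, and Fabp5 was highest there among the EY lines.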

How the results depend on the processing

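Over 22 alternatives, the count of members called higher stayed at 2 to 4, except for 0 with 1 mean per line, and 26 of 31 members kept their sign. The 413 genes called became 216 with at least 1 TPM required in every library, 203 with line as a random block, 2 with 1 mean per line and 221 with sample number as a replicate block. The 15 members at an adjusted p under 0.01 became 7 with line as a random block and 0 with 1 mean per line, where 3 EY lines face 1 N line (smallest adjusted p = 0.130 by limma, with 14 members at an unadjusted p under 0.05). The 4 other lipid genes called became 1, 0, 2 and 2 with the random block, line means, replicate block and without line EY4028. Same-numbered libraries were compared by their deviations from the line mean, and 1 of 12 pairs correlated over 0.1 (range -0.15 to 0.10). With 2 libraries in a line these deviations mirror each other, so the pairs are not independent. Whether libraries of the same number belong together cannot be told from this check. Without each library in turn, these counts stayed within 1.5 times.

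Signs changed for Acaca, Scap, Fads1 and Fads2, with log2 fold changes between -0.09 and 0.08, and for Scd2, at -0.34. Without single libraries, Acaca lay between -0.19 and 0.00841, Scap between -0.0055 and 0.093 and Fads1 between -0.067 and 0.17. Without line EY3960, Acaca was 0.12, Scap -0.017 and Scd2 0.19. Fads2 was -0.016 without line EY4028 and -0.024 without line EY4174, and Fads1 -0.18 and -0.15. Fads1 was -0.0087 with median-ratio scaling and -0.0036 without mitochondrial genes. The cause was not tested. Fasn lost its adjusted p under 0.01 in 16 alternatives, Stard4 in 10 and Insig1 in 8. Scd1, Scd2 and Fads1 differed between the EY lines in 17 of 17 alternatives. Unknown depth leaves the counting error of low genes such as Acss2 unmeasured.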

Other observations

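N replicate 4 was also the highest N library for Sqle (70.6 TPM, others 51.9 to 59.3 TPM) and Ebp (62.8 TPM, others 42.2 to 52.3 TPM), and the lowest for Acat2 (107 TPM, others 133 to 148 TPM). In the same library the suprabasal genes Krt13 (88.6 TPM, others 44.8 to 50.7 TPM) and Sprr1b (142 TPM, others 43.5 to 49.4 TPM) were the highest among N libraries. In EY, Sprr1b was 628 and 582 TPM in EY3960, 238 and 211 TPM in EY4028, and 71.2 and 75.0 TPM in EY4174. Cd68 followed the same order, at 68.9 and 71.8 TPM, 35.7 and 38.2 TPM, and 29.5 and 29.3 TPM.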
